A study of Mus musculus with 6 samples.

Results

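The 9 genes described here, Eef1a1, Eef1b2, Eef1d, Eef1g, Eef2, Rack1, Npm1, Tpt1 and Pabpc1, encode mRNAs of the terminal oligopyrimidine (TOP) class that do not code for ribosomal proteins. They were taken by gene symbol from a table of 24980 symbols, and all 9 were found and passed the filter on low values. RNA-seq had been done on satellite cells, the stem cells of skeletal muscle, sorted by flow cytometry from the hindlimbs of adult mice of the C57BL6/J strain. The 3 KO libraries were labelled as knockout for estrogen receptor α in satellite cells (scERα KO), and the 3 WT libraries as wild type for it (scERα WT). Mice of both groups had received tamoxifen, 10 mg in total, the agent used to induce Cre. The Cre driver and the targeted allele are not given in the sources used here, nor is it said that the libraries came from different mice, so a p-value here sets the groups against library-to-library spread, which may be technical. The comparison asks which TOP mRNAs differ in satellite cells when the receptor gene is targeted.

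A TOP mRNA begins with a C at its cap followed by an unbroken run of pyrimidines. The class holds nearly all ribosomal protein mRNAs and several translation factors, and its translation is switched on and off together through mTOR, with LARP1 as a protein that binds the cap and the run. Quiescent satellite cells hold translation low and raise it on activation. Among the members, eEF1A (Eef1a1) carries aminoacyl-tRNA to the ribosome, the eEF1B subunits (Eef1b2, Eef1d and Eef1g) reload it with GTP, and eEF2 (Eef2) moves the ribosome along the mRNA. Rack1 is a scaffold on the small ribosomal subunit, Npm1 a nucleolar chaperone of ribosome assembly, Tpt1 the translationally controlled tumor protein, and Pabpc1 the cytoplasmic poly(A) binding protein.

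The class is defined by the letters at the start of the mRNA. Windows at or downstream of the annotated starts are given for 4 of the 5 members with an entry in the RefSeq promoter table (GRCm38.p6). Each window is 30 bases, read 5′ to 3′ on the gene's strand, and capitals mark a run that begins with C, holds only C and T and has at least 5 letters. It is the longest that begins within 10 letters of the annotated start or, where there is none, within 25 or then 45.
Rack1, chr11:48800349-48800378, plus strand: ggccgCTCTTTCTTTTTCTCCacagggtcg
Eef1a1, chr9:78481705-78481734, minus strand: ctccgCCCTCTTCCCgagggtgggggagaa
Eef1b2, chr1:63176851-63176880, plus strand: tgcgtccgagcgCTTTCgttcaactccggc
Tpt1, chr14:75845276-75845305, plus strand: cggtgacgtagccgagcgtgCCCTCTatat
The Rack1 run had 16 letters and began 6 letters before the annotated start, and the Eef1a1 run had 10 letters and began 5 before it. The letters before that start lie outside the annotated transcript. Whether any marked run is the TOP run of the mRNA made in these cells was not tested. In Eef1b2 and Tpt1 the run began downstream, at letter 33 for Eef1b2 and 41 for Tpt1, counted from the annotated RefSeq start. The outer GENCODE M21 gene bounds lie farther upstream, at chr9:78489151 for Eef1a1 and chr14:75845093 for Tpt1. Which start is used in these cells is not known. The windows of Eef1b2 and Tpt1 lie wholly downstream of the annotated start and do not show the letters there. Eef1d, Eef1g, Npm1 and Pabpc1 had no entry in the table.

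Counted by a common rule, such a run, whole or in its later part, began within 10 letters of the annotated start in 2 of the 5 members. It did so in 35 of 57 cytosolic ribosomal protein genes with an entry (61.4%), in 37.5% of 6771 tested genes with an entry, in 34.4% of all 27025 genes of the table, and in 30.7% of its 32851 promoters. On the opposite strand, searched as an addition after the data were seen, the same rule matched all 5 members, 24.6% of the ribosomal protein genes, 41.3% of the tested genes and 38.5% of all genes of the table. Within 45 letters of the start, a width chosen after the sequences were seen, all 5 members had a run, as did 98.2% of the ribosomal protein genes and 78.5% of the tested genes. A gene was counted once over all its annotated starts, and overlapping runs were not counted apart. The letter before a run was not checked. A longer run that began outside the window was therefore counted if a later part, long enough and beginning with C, began inside it. A match describes the letters near an annotated start, which may not be the start used in these cells.

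Values are TPM, a measure of transcript abundance per length, so that levels can be compared between genes. The listed TPM summed to between 295306 and 334382 per library, short of the full TPM scale of 1e+06, and what held the rest is not known. Protein-coding symbols held between 32.1% and 36.0% of the listed TPM. Since TPM carry no depth, that of each library is unknown and no interval for counting error is given. Esr1, the targeted gene, held 2.92, 3.69 and 3.87 TPM in KO, against 7.53, 6.96 and 6.94 TPM in WT, lower in each KO library than in each WT library (limma adjusted p = 0.0925). Summed TPM of 10 satellite cell markers, Pax7 among them, ranged from 404 to 544 in KO and from 390 to 505 in WT. The sum of 8 fibroblast and fibro-adipogenic markers ranged from 166 to 192 in KO and from 134 to 239 in WT, and that of 7 endothelial markers from 11.2 to 21.8 in KO and from 11.0 to 16.8 in WT. Schwann cell markers (6 genes) ranged from 5.92 to 15.1 in KO and from 4.48 to 7.05 in WT, and those of pericytes and smooth muscle (6 genes) from 18.3 to 35.2 in KO and from 20.3 to 24.2 in WT. Leukocyte markers (7 genes) ranged from 5.12 to 7.78 in KO and from 3.37 to 9.50 in WT, fibre markers (7 genes) from 6.58 to 33.9 in KO and from 9.98 to 23.1 in WT, and erythroid markers (5 genes) from 38.4 to 437 in KO and from 18.2 to 215 in WT. In each list 0 markers were at 0 in all 6 libraries. The part of other cells in the results was not tested, and in bulk RNA fewer cells of a type and less RNA per cell cannot be told apart.

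The mean TPM of each of the 9 members was lower in KO than in WT, although 0 passed the test after adjustment. All 9 lay below 0 in log2 difference, as did 22.4% of genes tested, and in 7 of them every KO library lay below every WT library, against 3.07% of the 8971 genes tested (13.5% had every KO library above every WT library). Those 7 were the 5 elongation factor genes, Rack1 and Tpt1; in Npm1 and Pabpc1 the groups overlapped. By limma 0 of the 9 passed an adjusted p of 0.05 over all genes tested, where 0.0223% of genes were called lower and 0.0334% higher. An unadjusted limma p under 0.05 was found in the same 7 members, against 2.66% of genes tested on the lower side and 7.89% on the higher. The median log2 difference, KO minus WT on the log2(TPM + 1) scale, was -0.46 over the members and 0.12 over all genes tested. Of the 275 genes whose KO libraries all lay below the WT libraries, 77 were cytosolic ribosomal proteins. Among the 563 genes with a mean level of at least 28.5 TPM, the share with KO below WT was 21.1%, or 7.74% once members and ribosomal proteins were set aside. This bound is the rounded mean of Eef1d, the member with the lowest level, which itself fell just short of it. The share with an unadjusted p under 0.05 on the lower side was 19.7% there, or 6.49% without members and ribosomal proteins.

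**Figure D1:**
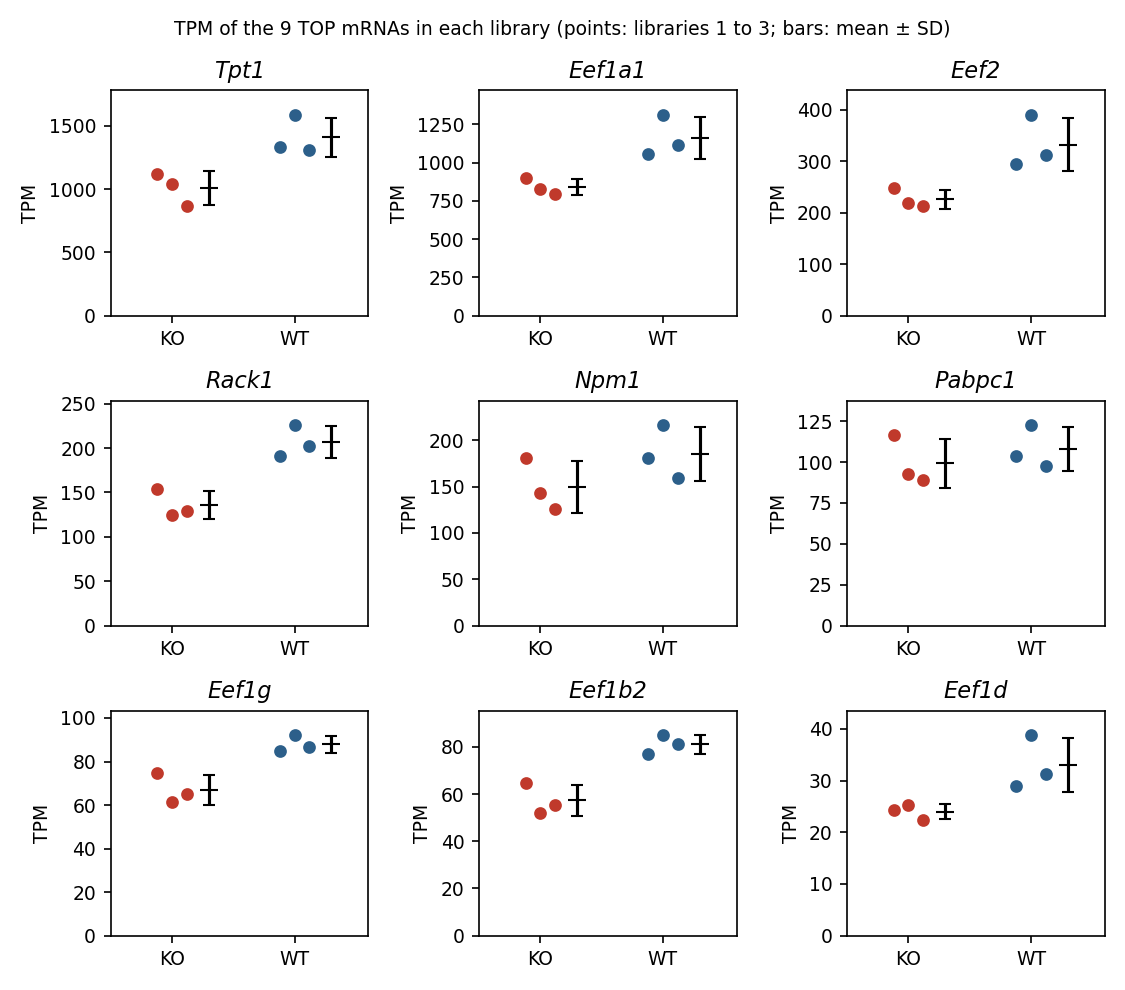
TPM of each member (y axis, from 0) in the 3 KO and 3 WT libraries (points, libraries 1 to 3 from left to right), with the mean ± SD beside them. The KO points lie below all WT points in 7 panels and overlap them in Npm1 and Pabpc1.

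Eef1a1 encodes eEF1A1, the form of the tRNA-carrying factor found in most cells (chr9:78478449-78489151, minus strand, GENCODE M21 on GRCm38). It held 900.4, 829 and 792 TPM in KO libraries 1, 2 and 3, against 1058, 1314 and 1113 TPM in WT libraries 1, 2 and 3. The groups did not overlap, and the highest KO library lay 157 TPM below the lowest WT library. The KO mean of 841 ± 55.1 TPM was 72.4% of the WT mean of 1161 ± 135 TPM (SD, n = 3 each). The log2 difference of -0.46 (SE 0.14, 95% confidence interval -0.78 to -0.15) did not pass, with a limma adjusted p of 0.270. Its paralog Eef1a2, the form of mature muscle fibres and neurons, named here after its values were seen, lay below the filter, at a mean of 0.353 TPM in KO and 0.317 TPM in WT.

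The 3 eEF1B subunits each had lower values in KO, and none passed after adjustment. Eef1b2, the exchange subunit (chr1:63176825-63180486, plus strand), held 64.6, 52.0 and 55.2 TPM in KO, against 77.0, 85.2 and 81.1 TPM in WT. Eef1g, the structural subunit (chr19:8967041-8978479, plus strand), held 74.7, 61.5 and 65.0 TPM in KO, against 84.8, 92.4 and 86.5 TPM in WT. Eef1d, a second exchange subunit (chr15:75894205-75909556, minus strand), held 24.3, 25.2 and 22.4 TPM in KO, against 28.9, 38.9 and 31.3 TPM in WT. In none of the 3 did the groups overlap, and WT library 2 held the highest value of each. Eef1b2 averaged 57.3 ± 6.57 TPM in KO and 81.1 ± 4.07 TPM in WT, Eef1g 67.0 ± 6.83 TPM in KO and 87.9 ± 3.95 TPM in WT, and Eef1d 23.9 ± 1.46 TPM in KO and 33.1 ± 5.21 TPM in WT (SD, n = 3 each), so that KO stood at 70.6%, 76.3% and 72.4% of WT. The log2 differences were -0.50 (SE 0.14), -0.39 (SE 0.14) and -0.44 (SE 0.15) in that order, with limma adjusted p of 0.242, 0.349 and 0.339.

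Eef2 encodes the translocation factor (chr10:81176631-81182498, plus strand). It held 247, 218 and 212 TPM in KO, against 295, 390.2 and 311 TPM in WT, with no overlap. The mean was 226 ± 18.7 TPM in KO and 332 ± 51.2 TPM in WT (SD, n = 3 each), or 68.0% of WT. The log2 difference was -0.55 (SE 0.15, 95% confidence interval -0.90 to -0.19; limma adjusted p = 0.243).

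Rack1, the scaffold on the small subunit (chr11:48800332-48806434, plus strand), had the lowest log2 difference of the 9 on the deposited scale, though not under quantile normalization, where Eef1d, Eef1b2 and Eef1g lay lower. It held 153, 125 and 129 TPM in KO, against 192, 226 and 202 TPM in WT. Its groups did not overlap either, and a gap of 38.1 TPM lay between them. Means were 136 ± 15.4 TPM in KO and 207 ± 17.9 TPM in WT (SD, n = 3 each), or 65.7% of WT. The log2 difference was -0.60 (SE 0.14, 95% confidence interval -0.94 to -0.27), and the limma adjusted p of 0.193 did not pass. By unadjusted p the gene ranked 132 among the 8971 tested.

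Tpt1 encodes a small protein tied to growth and survival (chr14:75845093-75848525, plus strand) and was the most abundant member. Its level was 1119.6, 1042 and 864 TPM in KO, against 1332, 1588 and 1307 TPM in WT, again with no overlap. The mean of 1009 ± 131 TPM in KO was 71.6% of the mean of 1409 ± 156 TPM in WT (SD, n = 3 each). The log2 difference was -0.48 (SE 0.15; limma adjusted p = 0.286).

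On the deposited scale Npm1 and Pabpc1 had the log2 differences nearest to 0; under quantile normalization Eef1a1 and Eef2 lay nearer to 0 than Pabpc1. Npm1, the nucleolar chaperone (chr11:33152287-33163206, minus strand), held 180.4, 143 and 126 TPM in KO, against 181, 217 and 159 TPM in WT. KO library 1 lay above WT library 3 and within 1 TPM of WT library 1. The log2 difference was -0.31 (SE 0.18, 95% confidence interval -0.73 to 0.11; limma adjusted p = 0.586). Without KO library 1 it was -0.45, and without KO library 3 or WT library 2 it was -0.19.

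Pabpc1, whose product coats the poly(A) tail (chr15:36595661-36609668, minus strand), held 117, 92.8 and 88.7 TPM in KO, against 104, 123 and 97.4 TPM in WT. KO library 1 lay above WT libraries 1 and 3, while the other 2 KO libraries lay below all WT libraries. Means were 99.4 ± 15.0 TPM in KO and 108 ± 13.2 TPM in WT (SD, n = 3 each). The log2 difference was -0.12 (SE 0.16, 95% confidence interval -0.49 to 0.25; limma adjusted p = 0.782), and the value moved with the library left out. It was -0.24 without KO library 1 and -0.19 without WT library 3, but -0.08 without KO library 2, -0.05 without KO library 3 and -0.03 without WT library 2. In exact permutation tests of each member (two-sided), the 7 without overlap had p = 0.1, below which 3 libraries against 3 cannot go, Npm1 had 0.2 and Pabpc1 0.5.

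**Figure D2:**
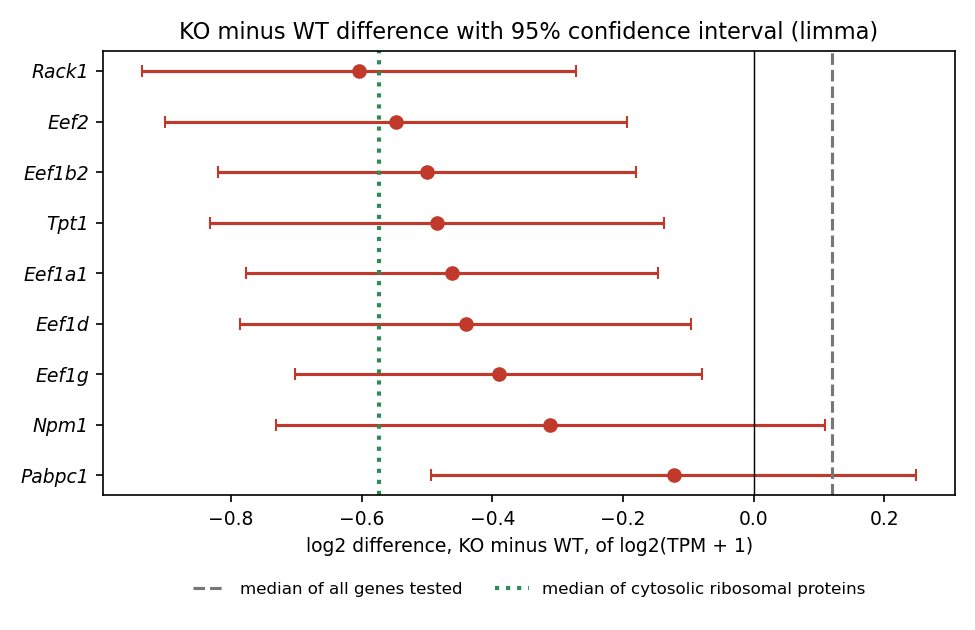
Log2 difference, KO minus WT, of log2(TPM + 1) for each member (points) with its 95% confidence interval from limma (bars), beside the median of cytosolic ribosomal proteins (dotted line, -0.57) and of all genes tested (dashed line, 0.12). The intervals of Npm1 and Pabpc1 include 0 and those of the other 7 do not, although 0 of the 9 passed after adjustment over all genes tested.

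The members spanned a wide range of levels, with nearly the same order in both groups. Averaged over the 6 libraries, Tpt1 ranked 5 and Eef1a1 ranked 7 among 20661 protein-coding symbols, and Eef1d, the lowest member, ranked 414. Tpt1 and Eef1a1 together made up 70.1% to 72.3% of the members' TPM in KO and 71.2% to 71.4% in WT. Below them, Eef1a1 stood above Eef2 by a ratio of means of 3.73 in KO and 3.50 in WT. Neighbours whose libraries overlapped within a group were Tpt1 with Eef1a1, Npm1 with Rack1, and Eef1g with Eef1b2, in KO and in WT alike. By their means, Npm1 stood above Rack1 in KO and Rack1 above Npm1 in WT.

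Within the groups, too, most members were highest in the same libraries on the deposited scale. How many of all genes tested had their highest values in the same libraries was not counted. The median over all genes tested of log2(TPM + 1) minus each gene's mean was -0.11, 0.07 and -0.13 in WT libraries 1, 2 and 3. In KO it was -0.01, 0.14 and 0.04. WT library 2 held the highest WT value in 9 of 9 members, and KO library 1 the highest KO value in 8 of 9, Eef1d being the exception with its highest value in KO library 2. The summed TPM of the 9 was 2881, 2589 and 2354 in KO, against 3351, 4075 and 3387 in WT. WT library 2 also had the largest total over all protein-coding symbols, 120278 TPM, where the other 5 libraries had between 98487 and 107870. As a share of that total the members took 2.74%, 2.40% and 2.39% in KO, against 3.29%, 3.39% and 3.26% in WT, and WT library 2 then lay close to the other WT libraries. Taken singly on this share, Eef1b2, Eef1g and Rack1 had their highest WT value in WT library 3, and the other members in WT library 2. On this share, too, KO lay below WT in the 7 members named above, against 2.82% of genes tested, and the groups overlapped in Npm1 and Pabpc1. Rack1 took 0.131% ± 0.0153 in KO and 0.190% ± 0.00367 in WT, and Pabpc1 0.0957% ± 0.0134 in KO and 0.0992% ± 0.00466 in WT (SD, n = 3 each).

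**Figure D3:**
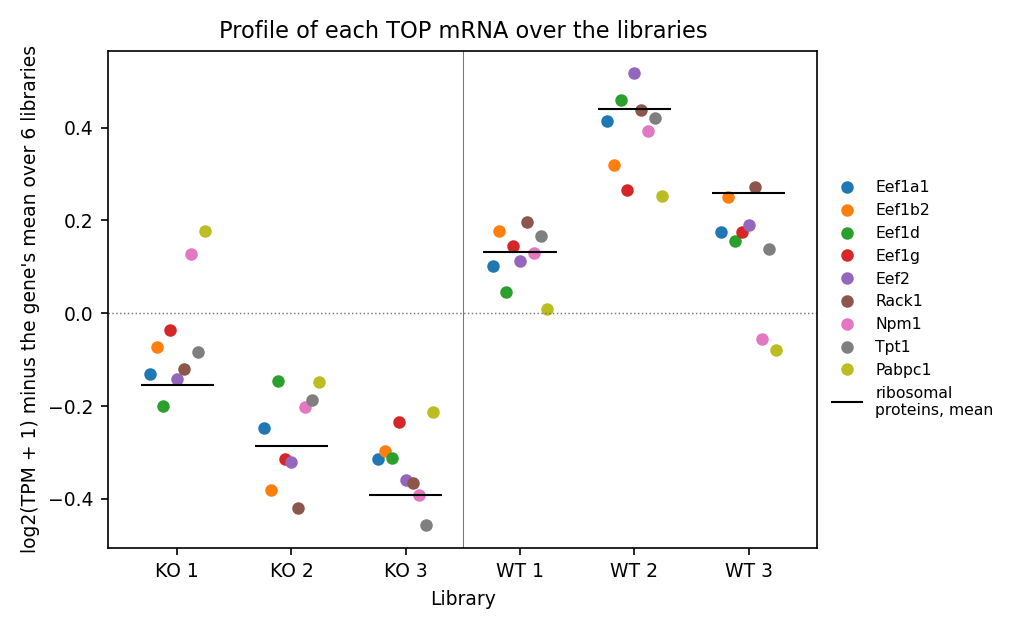
Value of each member (coloured points) in each library (x axis), as log2(TPM + 1) minus the gene's own mean over the 6 libraries, with the mean of the same quantity over 78 cytosolic ribosomal proteins (horizontal bars). Points in WT library 2 are the highest of each member, and Npm1 and Pabpc1 lie above the other members in KO library 1.

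Scaling altered the size of the differences but not their sign. All 9 members had a log2 difference below 0 under each of the 20 other settings. Scaling by the median of ratios, which moved the median of all genes tested to 0.01, gave a member median of -0.61. Quantile normalization gave one of -0.21, with Npm1 at -0.07, Eef1a1 at -0.15, Eef2 at -0.16, Tpt1 at -0.21 and Rack1 at -0.41, nearer to 0 than on the deposited scale. Pabpc1 at -0.20, Eef1g at -0.47, Eef1b2 at -0.58 and Eef1d at -0.59 lay farther from 0 than on that scale. When only protein-coding genes were kept and brought to the same sum in each library, the smallest adjusted p of a member was 0.0511 for Rack1 and 0 of 9 passed by limma (unadjusted p under 0.05 in 7), while 0.588% of the 8158 genes were called lower. In 1 setting, scaling by the protein-coding total without the members and the ribosomal proteins, chosen after the data were seen, 4 members fell by limma with Benjamini-Hochberg adjustment. They were Rack1 (adjusted p = 0.0322), Eef2 (0.0332), Eef1a1 (0.0387) and Tpt1 (0.0491), where 1.03% of genes were called lower. This divisor leaves out the genes already seen to be lower in KO, so it moves the members farther down. Summed TPM in KO was 67.6% of WT for the ribosomal proteins and 72.35% for the members. The member median was -0.55 in this setting and -0.40 with all protein-coding genes rescaled. Over all 20 settings the adjusted p ranged from 0.0322 to 0.484 for Rack1, from 0.0332 to 0.719 for Eef2, from 0.0387 to 0.674 for Eef1a1 and from 0.0491 to 0.641 for Tpt1.

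Ribosomal protein mRNAs, the bulk of the TOP class, bore the closest likeness. All 78 cytosolic ribosomal proteins tested had a lower value in KO, 77 of them without overlap, with a median log2 difference of -0.57 against -0.46 for the members; 0 passed the adjusted limma threshold and 75 had an unadjusted p under 0.05. With protein-coding genes rescaled to a common sum 34 of them passed on the lower side, with the scaling added after the data were seen 57, and with library weights 3. Their summed TPM was 20203, 18467 and 17056 in KO, against 24618, 30749 and 27038 in WT. Per TPM of ribosomal protein mRNA, the 9 members together stood at 0.143, 0.140 and 0.138 in KO, against 0.136, 0.133 and 0.125 in WT. In 6 of the 9 members the proportion to the ribosomal proteins overlapped between the groups. Per 100 TPM of ribosomal protein mRNA, Rack1 had 0.731 ± 0.0487 TPM in KO and 0.753 ± 0.0218 TPM in WT, and Eef2 1.22 ± 0.0328 in KO and 1.21 ± 0.0599 in WT (SD, n = 3 each). Pabpc1 had 0.533 ± 0.0387 TPM in KO and 0.394 ± 0.0308 TPM in WT on this measure, Npm1 0.802 ± 0.0815 in KO and 0.676 ± 0.0775 in WT, and Eef1a1 4.53 ± 0.0993 in KO and 4.23 ± 0.0984 in WT (SD, n = 3 each). In these 3 all KO libraries lay above all WT libraries (exact two-sided permutation p = 0.1 each, the smallest possible), as they did in 75.1% of all genes tested on this measure, whose divisor was itself lower in KO, at 67.6% of WT.

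**Figure D4:**
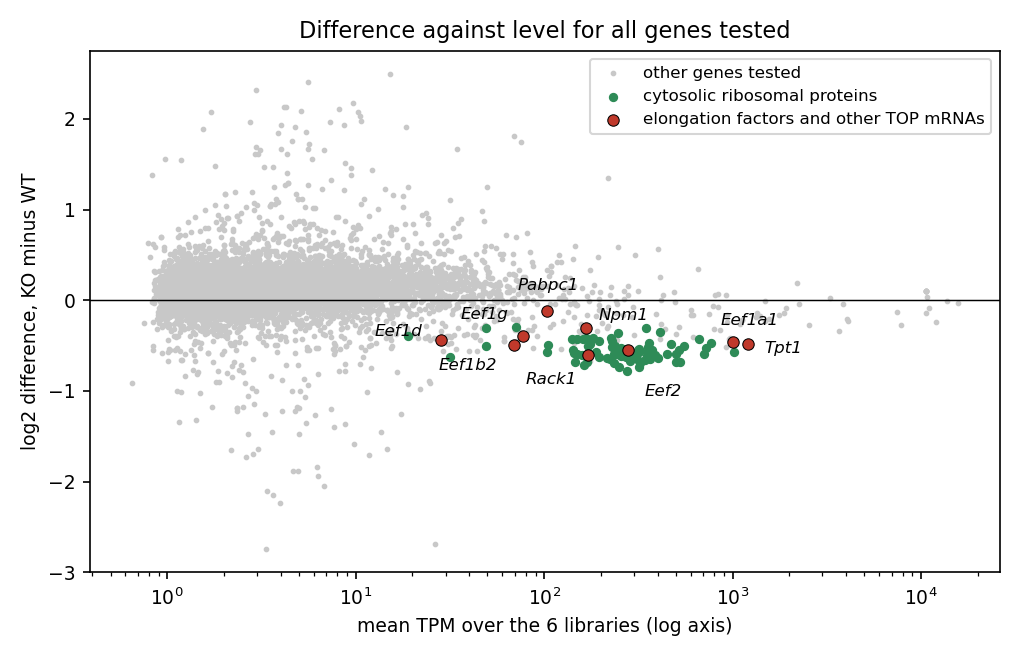
Log2 difference, KO minus WT (y axis), against mean TPM over the 6 libraries (x axis, log scale) for the 8971 genes tested, with cytosolic ribosomal proteins and the 9 members marked. All 9 members lie below 0, and those other than Pabpc1 lie within the range of differences of the ribosomal proteins (-0.78 to -0.30).

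Ratios between members within a library do not change when each library is multiplied by a single factor. Quantile normalization does change them, and the ratios were not taken on that scale. There the log2 difference of Pabpc1 was -0.20 and that of Eef1a1 -0.15, against -0.12 and -0.46 on the deposited scale. Of 36 such ratios, 15 differed between the groups without overlap and 21 overlapped, and the exact two-sided permutation test could give no p under 0.1 for any of them, before adjustment. How often ratios between other genes separate in this way was not counted. Pabpc1 was in 8 of those 15, that is, in every ratio it enters. Most members were lower in KO, so a gene that differs little can separate from them. Per TPM of ribosomal proteins, also lower in KO, all KO libraries lay above all WT libraries in 75.1% of genes tested. The ratio of Pabpc1 to Eef1b2 was 1.80, 1.79 and 1.61 in KO, against 1.35, 1.44 and 1.20 in WT. That of Rack1 to Pabpc1 was 1.32, 1.34 and 1.46 in KO, against 1.85, 1.84 and 2.07 in WT. Rack1 was in 5 of the 15, and its ratio to Eef1g was 2.02 ± 0.0320 in KO and 2.35 ± 0.0974 in WT (SD, n = 3 each). Within the eEF1B complex, the ratio of Eef1g to Eef1b2 was 1.17 ± 0.0145 in KO and 1.08 ± 0.0173 in WT, without overlap, while the ratios of both to Eef1d overlapped. The ratio of Tpt1 to Eef1a1, the most abundant pair, overlapped at 1.20 ± 0.0924 in KO and 1.21 ± 0.0428 in WT (SD, n = 3 each).

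**Figure D5:**
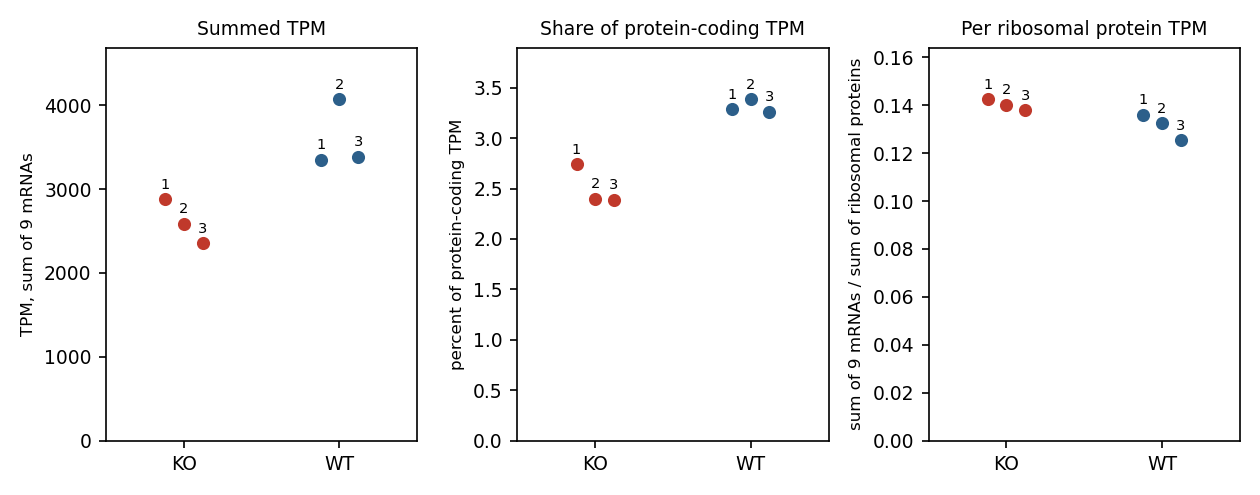
Sum of the 9 members in each library (points, numbered by library) as TPM, as percent of all protein-coding TPM, and per TPM of cytosolic ribosomal proteins; y axes start at 0. KO lies below WT in the first 2 panels and above WT in the third, where values run from 0.125 to 0.143.

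Other mRNAs that are often classed as TOP were mixed. Of the 8 listed, 5 had a lower and 3 a higher value, with KO below WT in 4 and above in 2. Over all genes tested 22.4% had a lower value, 3.07% had KO below WT and 13.5% had KO above WT. By limma 0 of the 8 passed after adjustment, while 2 had an unadjusted p under 0.05 on the lower side and 1 on the higher. The shares of all genes tested with such a p were 2.66% on the lower side and 7.89% on the higher. The initiation factor subunit Eif3h was at 51.3 ± 1.81 TPM in KO and 70.9 ± 10.8 TPM in WT, and Eif4b, which aids the helicase at the cap, at 26.3 ± 0.751 TPM in KO and 35.1 ± 5.39 TPM in WT (SD, n = 3 each). Eif3e was at 38.2 ± 3.55 TPM in KO and 47.2 ± 6.39 TPM in WT. Vim, which encodes the intermediate filament protein vimentin, went the other way at 225 ± 32.5 TPM in KO and 161 ± 11.5 TPM in WT, with a log2 difference of 0.48 (SE 0.15; limma adjusted p = 0.303). The median of the list was -0.15 and below 0 under each of the 20 other settings, at -0.07 without WT library 2, -0.09 with protein-coding genes rescaled, -0.25 with the added scaling and -0.30 when scaled by the median of ratios or by quantiles. The median of all genes tested was 0.12 on the deposited scale and 0.19 without WT library 2. It was 0.22 with protein-coding genes rescaled, 0.07 with the added scaling, 0.01 by the median of ratios and -0.001 by quantiles.

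Genes that work with the members had values on both sides of 0. For the counts below, 22.4% of all genes tested had a lower value and 3.07% had all KO libraries below all WT libraries. For the medians below, that of all genes tested was 0.12 on the deposited scale and 0.01 under median-of-ratios scaling. It was -0.001 by quantiles, 0.07 with the scaling added after the data were seen and 0.08 without WT library 3. Among paralogs, partners and termination factors 4 of 9 tested had a lower value, and in 0 of them were the groups apart. The median of 0.02 was -0.11 when scaled by the median of ratios, -0.10 by quantiles, -0.07 with the scaling added after the data were seen and -0.07 without WT library 3. Etf1, the release factor, was at 51.6 ± 9.41 TPM in KO and 44.9 ± 8.68 TPM in WT. Among enzymes that modify the elongation factors 5 of 9 had a lower value (median -0.06, but 0.03 with no filter and 0.01 without KO library 2), and in 1, the diphthamide enzyme gene Dph6, all KO libraries lay below WT, at 1.17 ± 0.0351 TPM in KO and 1.42 ± 0.174 TPM in WT. Of the 5 mitochondrial elongation factors 2 were tested, Tufm at 2.93 ± 0.132 TPM in KO and 3.13 ± 0.488 TPM in WT and Gfm1 at 2.77 ± 0.188 TPM in KO and 2.47 ± 0.358 TPM in WT (median 0.03, but between -0.10 and -0.04 under median-of-ratios, quantile or the added scaling, with library weights or without WT library 3). In these lists 0 genes passed by limma after adjustment and 0 had an unadjusted p under 0.05.

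The relatives of Pabpc1 and Npm1 and the proteins that bind TOP mRNAs lay near the median of all genes, of which 22.4% had a lower value. That median moved with the setting too. It was 0.12 on the deposited scale, 0.01 when scaled by the median of ratios and -0.001 by quantiles. Without KO library 1 it was 0.15 and without WT library 3 it was 0.08. Among poly(A) binding proteins and partners 2 of 10 had a lower value (median 0.12, but -0.02 when scaled by the median of ratios and -0.04 by quantiles); Pabpc4 was at 7.42 ± 0.683 TPM in KO and 8.44 ± 1.05 TPM in WT, and Paip1, a partner of the Pabpc1 protein, at 3.96, 4.08 and 3.55 TPM in KO, against 2.69, 3.43 and 2.88 TPM in WT. Among nucleolar partners of Npm1 1 of 7 had a lower value (median 0.15, but -0.01 without KO library 1 and -0.04 without WT library 3); nucleolin (Ncl) was at 94.7 ± 21.0 TPM in KO and 84.7 ± 15.8 TPM in WT. Among proteins that bind TOP mRNAs or the cap 1 of 10 had a lower value (median 0.11, but -0.02 when scaled by the median of ratios and -0.03 by quantiles), and the cap-binding factor Eif4e was at 9.13 ± 1.03 TPM in KO and 7.71 ± 1.05 TPM in WT (SD, n = 3 each). In these 3 lists 0 genes passed by limma after adjustment and 0 had an unadjusted p under 0.05.

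The genes with the profile nearest to the members' mean profile were mostly ribosomal proteins. Likeness was the mean absolute difference, over the 6 libraries, of log2(TPM + 1) centred on each gene's mean, and 8508 genes outside the members were ranked. The nearest was Rpl30 at 0.025, with 181, 162 and 152 TPM in KO, against 205, 256 and 216 TPM in WT, and Rps2, Rpl11, Naca, Rpl19 and Rpl7a were among the 8 nearest, of which 7 were ribosomal proteins. Naca, the one of the 8 that is not a ribosomal protein, encodes a subunit of the nascent polypeptide-associated complex at the ribosome's exit, and was at 136 TPM in KO and 174 TPM in WT on average (log2 difference -0.35, SE 0.14; limma adjusted p = 0.422). Of the nearest 100 genes 60 were ribosomal proteins, of 78 tested. Taken singly, the nearest gene was a ribosomal protein for 6 members, Rpl30 for Eef1a1, Rpl35 for Eef1b2, Rpl15 for Eef1g, Rpl8 for Eef2, Rplp0 for Rack1 and Fau for Tpt1. It was the small nucleolar RNA gene Snord11 for Eef1d, Zfp948 for Npm1 and Nsun5 for Pabpc1. Pabpc1 lay farthest from the members' mean profile, at 0.153, where the other 8 lay between 0.032 and 0.088. The likeness uses the group difference as well as the spread within groups, so it is no separate evidence for either.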

How the data were processed

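RNA-seq was done on satellite cells of 3 KO and 3 WT libraries, grouped by their labelled genotype. Total RNA came from a Qiagen RNeasy kit and standard Illumina library preparation, per the labels' protocols. CASAVA, Trimmomatic 0.33, FastQC and kallisto are named in the submitters' processing notes beside the builds mm10 and GRCm38, without roles. No source used here gives the annotation, the strandedness or how transcripts were summed per gene. The deposited values are the authors' TPM by symbol, which share out a fixed total within each library, so that a difference in abundant RNAs moves all values of that library. Several members have processed pseudogenes, and how the authors' quantification split reads shared with these is not known.

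Genes with TPM of at least 1 in at least 3 of 6 libraries were kept (8971). The two-sided limma test (version 3.58.1, R 4.3.3; lmFit, eBayes with trend) used log2(TPM + 1) and Benjamini-Hochberg adjustment over all genes tested. Differences on this scale understate those of low genes. Genes named beside the members were among the up to 4 of each list with the smallest limma p, the 8 nearest in profile and each member's nearest, passing over predicted genes and Rik symbols; some items that this rule or the sequence search gives are not reported here. The fit was tested on simulated data, with genes drawn independently and planted changes larger than the members' differences. How often it would call differences of the members' size was not examined. Protein-coding status and promoter sequences are from RefSeq, and gene coordinates from GENCODE M21, matched by symbol and 1-based. The members and lists were chosen with earlier results of these data known. Some planned settings changed scaling, filter, pseudocount, eBayes options or library weights, and others left out each library in turn; those added after the data were seen are named as such.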

Additional observations from a re-analysis of the deposited data

How the results depend on the processing

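The count of members passing the adjusted limma threshold was 0 under 19 of 20 other settings. It was 4 with the protein-coding total without members and ribosomal proteins, a divisor that leaves out genes already seen to be lower in KO. No member's direction reversed. Over 180 member values 176 kept their side of the threshold and 4 newly passed. The member median of -0.46 was -0.61 when scaled by the median of ratios and -0.21 by quantiles, and it ranged from -0.53 to -0.37 with 1 library left out. The causes of the following were not tested. The 5 calls over all genes became 2 with a pseudocount of 0.1, with one of 5 or with the total without members and ribosomal proteins, 3 with a filter of 5 TPM or median-of-ratios scaling, 1 under quantile normalization, and 33 with robust eBayes. They became 80 with library weights, 86 and 87 with protein-coding genes rescaled to the full TPM scale or to their mean total, and 99 with the added scaling. They became 0 with no filter (374 lower and 1198 higher at an unadjusted limma p under 0.05) or a filter on mean TPM of 1 (243 and 723). With 1 library left out they ranged from 0, without KO library 3 (203 lower and 474 higher at an unadjusted limma p under 0.05), to 6, without WT library 2. Calls among the 78 ribosomal proteins, 0 on the deposited scale, were 34 with either protein-coding rescaling, 57 with the added scaling and 3 with library weights. Of the list medians 141 of 159 moved by less than 0.113, the SD of the member median over KO libraries. The pyrimidine run, whole or in its later part, was found in 2 of 5 members within 10 letters, 2 within 3 letters or with at least 7 letters, 3 within 25 and 5 within 45. Within 3 letters the matches were later parts of the Rack1 and Eef1a1 runs, which themselves began farther upstream.

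Summing members with listed pseudogene copies was not run. The search was only for a member's symbol followed by -ps, and 0 such symbols were listed. Copies under other symbols, such as those of predicted genes, were not searched for. No paired analysis was possible because each library's title carries a different number. TPM keep no depth, and 3 libraries a group limit what can pass.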
